A study of Mus musculus with 24 samples.

Results

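The comparison was of 8 single-cell RNA libraries made after Percoll density separation with 8 made from whole dissociated tumors, with the treatment as the pair. The members were chosen by preparation and treatment, and they are the 16 RNA libraries among 24 samples. Within them, a barcode counted as a cell if it had at least 1000 UMIs (unique molecular identifiers, each standing for 1 captured mRNA molecule) and under 10% of UMIs from mitochondrial genes. Of 144994 deposited barcodes 120912 passed, 58798 from whole tumors and 62114 from Percoll, with 4881 to 10640 cells in a library. The total depth of a library was 7.71e+07 to 1.76e+08 UMIs over all its barcodes. All tumors were Panc02, a mouse pancreatic cancer line, grown under the skin of male C57BL/6 mice that were 6 to 7 weeks old at implantation. The 8 treatments were Isotype Control, Anti-CTLA-4 alone, Anti-PD-1 alone, both antibodies together, and these same 4 with PancVAX added, the Isotype Control counterpart being labelled PancVAX (with isotype antibodies in the study's methods). PancVAX is a peptide vaccine against tumor neoantigens, given on days 12 and 19 with 50 ug of peptides per the labels (per peptide in the study's methods), mixed with AddaVax and a STING agonist, and PBS took its place in the other groups. Anti-PD-1 (100 ug, 2 times a week from day 12) and Anti-CTLA-4 (100 ug on days 15 and 22) are checkpoint antibodies. Tumors were taken on day 38 per the labels, whereas a legend of the study gives an earlier day.

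Tumors of a treatment were pooled before sequencing, so that a library stands for a pool of mice, with 1 library per treatment and preparation. The preparations were also sequenced as separate batches, and an effect of Percoll and an effect of the batch cannot be told apart in these data. Whether both libraries of a treatment hold cells of the same mice was not given in the sources used here. P values therefore measure the spread of the difference between preparations over 8 treatments.

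Percoll is a suspension of coated silica particles that forms a density gradient, on which cells settle according to their buoyant density, away from red cells, debris, and much of the dying cells. It is commonly used to enrich leukocytes of solid tissue, at the cost of added handling time. Cells taken out of tissue respond to handling within minutes by transcribing immediate early genes (*Fos*, *Jun*, *Egr1*, *Zfp36*), heat shock genes, and NF-kappaB targets. Neutrophils hold little RNA, are short-lived, and change quickly outside the body. The comparison asks how the preparations differed in the make-up of the samples, in the quality of the barcodes, and in the transcripts of each lineage.

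Lineages were assigned with marker gates. Each cell was thinned at random to 1000 UMIs, and it took the lineage whose marker list held at least 2/3 of its marker UMIs, with at least 2 such UMIs. Leukocyte gates also needed 1 UMI of a list of pan-leukocyte genes, a condition set after values had been seen. Genes beyond the markers also led in the gates: *S100a9* and *S100a8* led in neutrophils, *Nkg7* and *Cd8b1* in T cells, *Igkc* in B cells, and *Apoe* in the monocyte or macrophage gate. In the Percoll libraries, T cell receptor contigs were found in 78.5% to 91.7% of cells in the T cell gate, 0.552% to 2.74% in the tumor or stromal gates, and 0.777% to 2.57% in the monocyte or macrophage gate. Cells with markers of several lineages (5.72% of all cells) were kept out of every lineage, except for mixtures of tumor or stromal markers, described below. No doublet caller was run. Gates for epithelial or tumor cells, keratinocytes, and stromal cells overlapped in these tumors: with all UMIs of each cell in place of 1000, only 45.2%, 20.5%, and 53.8% of their cells kept that gate. They are therefore mainly given pooled, as tumor or stromal cells. Also in the pool were cells with markers of these 3 gates of which none led (20.7% of all cells). The keratinocyte gate rested mainly on *Lgals7*, at 3.59 UMIs per 1000 in whole tumors and 3.75 in Percoll. *Krt5* was at 0.23 and 0.44 there, and *Krt14* at 0.28 and 0.60, so the name is that of the marker list.

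A larger share of leukocytes was not detected in the Percoll libraries. Gated leukocytes were 38.9% ± 6.06 of cells in whole tumors and 37.2% ± 4.55 in Percoll (mean ± SD, n = 8 libraries each). The difference within a treatment was -1.68 percentage points ± 6.00 (SD, n = 8 pairs), and Percoll was higher in 3 of 8 pairs (exact paired permutation test, two-sided, p = 0.586, adjusted p = 0.721). In whole tumors the share ran from 29.5% with Anti-CTLA-4 to 45.9% with PancVAX + Anti-PD-1, and in Percoll from 31.1% with PancVAX + Anti-PD-1 to 43.2% with Anti-PD-1. The groups overlapped over most of their range. PancVAX + Anti-PD-1 had the largest fall, and without that pair the mean difference was 0.188 points. Its Percoll library also stood apart in depth, with a median of 5164.5 UMIs per cell against 9496 to 14503 in the other Percoll libraries. A count without gates, of cells with at least 2 UMIs of pan-leukocyte genes, gave 41.9% ± 6.56 and 40.2% ± 4.22, and cells with a UMI of *Ptprc*, which encodes CD45, were 18.0% ± 3.87 and 17.7% ± 2.15 (n = 8 each). Over 19 other settings the difference lay between -2.56 and 2.28 points, and the lowest adjusted p was 0.458 in the exact test.

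**Figure D1:**
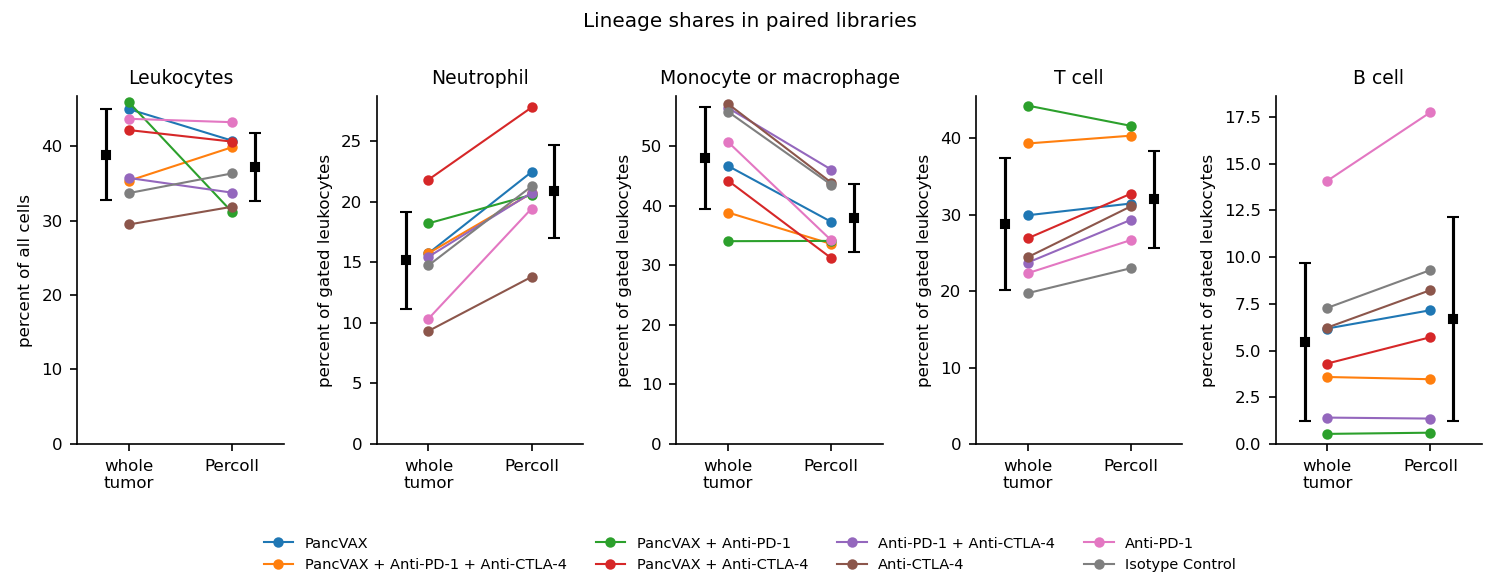
Share of leukocytes among all cells (left) and of 4 lineages among gated leukocytes, in percent, in whole-tumor and Percoll libraries. Each line joins the 2 libraries of a treatment, and black squares with bars are mean ± SD of 8 libraries. The neutrophil share rose along all 8 lines, and the leukocyte lines cross.

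Among leukocytes, the make-up differed between preparations. Neutrophils, short-lived phagocytes, made up 15.2% ± 4.00 of gated leukocytes in whole tumors and 20.8% ± 3.83 in Percoll (n = 8 each), and were higher in Percoll in 8 of 8 pairs, by 5.67 points ± 1.96 (SD). In whole tumors their share was lowest with Anti-CTLA-4, at 9.32%, and highest with PancVAX + Anti-CTLA-4, at 21.8%. In Percoll it was again lowest with Anti-CTLA-4, at 13.8%, and highest with PancVAX + Anti-CTLA-4, at 27.8%, so that the preparations overlapped between treatments. The exact p was 0.0078, the smallest that 8 pairs can give, and 0.0547 after adjustment over 7 lineages, just outside the threshold. Over 18 other settings the rise was 2.32 to 7.99 points and the adjusted p 0.0137 to 0.109, under 0.05 in 9. The smallest rise was with cells of at least 2000 UMIs, a limit that most neutrophils, with a median of 1509 UMIs, do not reach.

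The monocyte or macrophage gate, which holds the phagocytes that clear debris and present antigen, went the other way. It held 48.0% ± 8.59 of gated leukocytes in whole tumors and 38.0% ± 5.69 in Percoll (n = 8 each), and Percoll was lower in 7 of 8 pairs, by 10.0 points on average (exact p = 0.0156, adjusted p = 0.0547). The exception was PancVAX + Anti-PD-1, with 34.1% in both. Of all cells, the gate took 18.4% ± 2.83 and 14.0% ± 1.74, lower in Percoll in 8 of 8 pairs (exact p = 0.0078, adjusted over 16 measures 0.0625). T cells were 28.9% ± 8.66 and 32.1% ± 6.33 of gated leukocytes, higher in Percoll in 7 of 8 pairs by 3.20 points (exact p = 0.0391, adjusted p = 0.0820) but by 0.798 points under a limit of 5% mitochondrial UMIs, and B cells 5.45% ± 4.21 and 6.70% ± 5.46, higher in 6 of 8 (exact p = 0.0469, adjusted p = 0.0820). Shares of 1 whole are not independent, since a fall of the largest group raises the others. Of all cells, the T cell share was 11.4% ± 4.50 and 11.9% ± 2.45 (exact p = 0.766).

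Tumor or stromal cells were 44.0% ± 5.55 of cells in whole tumors and 46.9% ± 4.28 in Percoll, higher in 6 of 8 pairs (n = 8, exact p = 0.0391, adjusted p = 0.0893). The difference was 2.89 points ± 3.87 (SD, n = 8 pairs), and it ran from -0.112 (with the limits of the study) to 3.67 over 19 alternative settings, none of which passed. Endothelial cells, which line blood vessels, were 0.503% ± 0.109 and 0.394% ± 0.125 (exact p = 0.0547). Cells of no gate were 11.1% ± 1.21 and 10.1% ± 0.881, lower in 8 of 8 pairs (exact p = 0.0078, adjusted p = 0.0625), a share that thinning sets: with all UMIs it was 0.715% and 0.291%. The PancVAX and non-PancVAX pools were compared in the effect of Percoll on 23 shares, and the lowest p of the exact permutation test over 70 splits was 0.0571. The same exact test reached its floor of 0.0286 with the study's limits for the keratinocyte gate and the epithelial or tumor gate (adjusted p = 0.229). With all UMIs it did so for cells of no gate (adjusted p = 0.457).

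The quality of the barcodes and the content of red cell transcripts differed between preparations in all pairs. Barcodes that passed the rule were 78.6% ± 5.38 in whole tumors and 88.2% ± 1.74 in Percoll (n = 8 each), higher in 8 of 8 pairs (exact p = 0.0078, adjusted over 17 measures 0.0266). The whole-tumor libraries ran from 66.5% to 82.2% and the Percoll libraries from 85.0% to 90.5%, with no overlap. Barcodes under 1000 UMIs fell from 15.7% ± 3.26 to 9.12% ± 1.66, and barcodes with 10% or more mitochondrial UMIs, a common sign of damaged cells, from 11.2% ± 7.64 to 4.00% ± 0.836, both in 8 of 8 pairs with the same exact p. With 1 treatment left out, the directions held in all 8 cases, but each of these 3 calls passed in 2 of the 8 (exact test of 7 pairs, adjusted p of 0.0295 to 0.0531). The spread of the mitochondrial measure came from whole tumors, where Anti-PD-1 and Isotype Control were highest. With the limits of the study, which also drop barcodes of over 10000 UMIs, the passing share was 38.1% and 40.5% and the difference no longer passed (exact test, adjusted p = 0.266). Just inside and outside the limits, whole tumors had 1584 barcodes within 100 UMIs above the minimum and 1667 within 100 below it, and 1443 with 9% to 10% mitochondrial UMIs and 1090 with 10% to 11%. The corresponding counts in Percoll were 1017, 1042, 313, and 289.

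**Figure D2:**
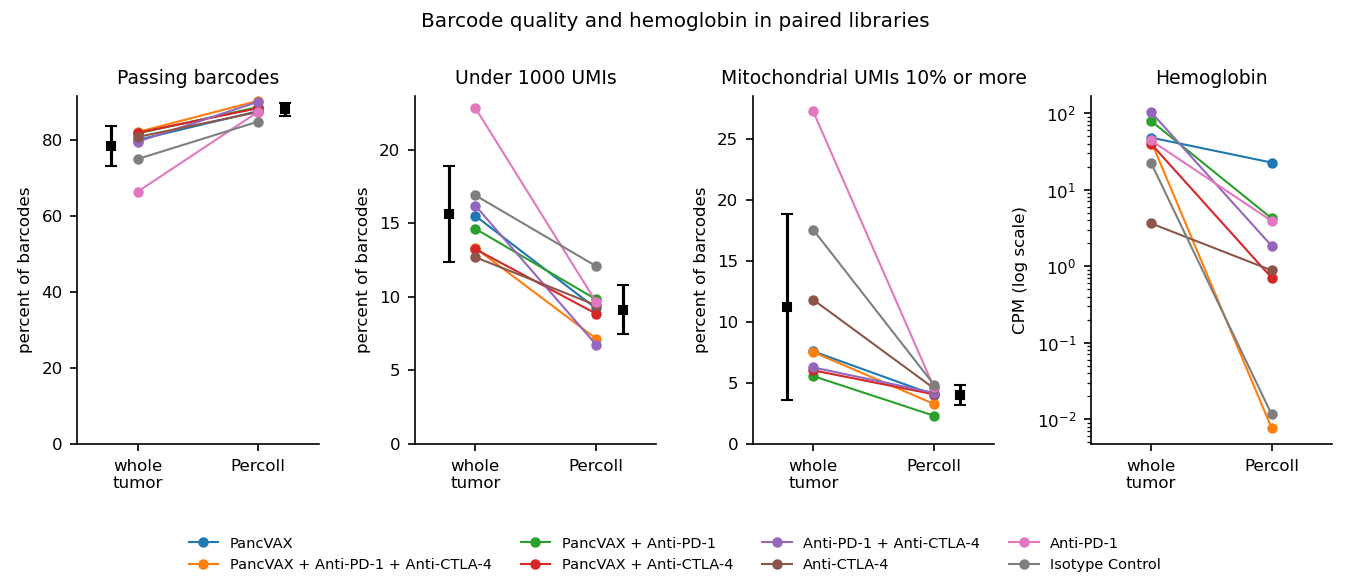
Percent of deposited barcodes that passed the rule, had under 1000 UMIs, or had at least 10% mitochondrial UMIs, and hemoglobin UMIs as a rate over all UMIs (in CPM, log scale), in whole-tumor and Percoll libraries. Lines join the 2 libraries of a treatment, squares with bars (first 3 panels) are mean ± SD of 8 libraries, and all 4 measures moved 1 way along all 8 lines.

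Hemoglobin transcripts, which come from red cells and their precursors, were lower in Percoll. Over all barcodes they were at 48.0 ± 31.1 CPM in whole tumors and 4.26 ± 7.57 in Percoll (n = 8 each), lower in 8 of 8 pairs (exact p = 0.0078, adjusted p = 0.0266, passing in 2 of 8 cases with 1 treatment left out), where CPM is counts of UMIs scaled to a fixed library total. In whole tumors the levels were 3.62 to 103 CPM. In Percoll 7 libraries had 0.00762 to 4.21 CPM, and PancVAX had 22.6, so that the groups overlapped. *Hba-a1* and *Hba-a2*, which encode near-identical alpha chains and may share reads, and *Hbb-bs*, a beta chain, had log2 fold changes of -5.05, -5.48, and -4.80 in sums over all cells (edgeR adjusted p = 0.00090, 0.00052, and 0.0048).

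Of the depth measures per cell, the one of the monocyte or macrophage gate passed the test, and it did so in 1 of 8 repeats with a treatment left out. The median UMIs per cell were 10175 ± 2019 in whole tumors and 11445 ± 3000 in Percoll (n = 8, higher in 7 of 8 pairs, exact p = 0.0625, adjusted p = 0.118). In the monocyte or macrophage gate they were 5566 ± 691 and 6699 ± 1187 (exact p = 0.0156, adjusted p = 0.0443), and in T cells 3853 ± 844 and 4317 ± 708 (exact p = 0.0234, adjusted p = 0.0569). In neutrophils the values were 1473 ± 115 and 1519 ± 132 (exact p = 0.273), and in tumor or stromal cells 18157 ± 1113 and 18499 ± 4517 (exact p = 0.875). The part of depth in the gene results below was not tested, other than by thinning every cell to 1000 UMIs.

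Genes were compared on UMIs summed per library, with the edgeR quasi-likelihood test, the treatment as a block, and Benjamini-Hochberg adjustment over all genes tested. A gene was called at an adjusted p under 0.05 and an absolute log2 fold change over 0.5, and levels are in CPM of the summed cells, TMM-scaled. Changes are Percoll over whole tumor. In sums over all cells, 1141 of 16329 genes were called (6.99%), 667 higher (4.08%) and 474 lower (2.9%) in Percoll. None of the 20 immediate early genes introduced below was called in these sums by edgeR, 6 of 14 inflammatory genes were higher, and all 3 hemoglobin genes tested were lower. In sums over all cells a change in the number of cells of a lineage and a change in RNA per cell cannot be told apart, and the results below are within lineages. The comparisons of different lineages use the same 16 libraries and are not independent of each other.

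The share of genes called was 4.74% in T cells (479 of 10104), 11.4% in B cells (471 of 4133, over 7 pairs), 4.19% in the monocyte or macrophage gate (481 of 11489), 11.2% in neutrophils (746 of 6652), and 5.42% in tumor or stromal cells (796 of 14675). It was 1.96% in dendritic cells (75 of 3836) and 0.622% in endothelial cells (36 of 5791, over 7 pairs). In NK cells, with 4 pairs, none of 1275 genes was called by edgeR, and 88 had an unadjusted p under 0.05. In the monocyte or macrophage gate 301 genes were higher and 180 lower, and without TMM scaling 235 and 250. These counts moved by over 1.5 times in some settings, to 243 in B cells, 294 in the monocyte or macrophage gate, and 316 in tumor or stromal cells with every cell thinned to 1000 UMIs, to 288 in the latter with the limits of the study, and to 493 in neutrophils with DESeq2. The neutrophil sums held 8258 cells, and those of the monocyte or macrophage gate 19273. Of the gates within the tumor or stromal pool, the epithelial or tumor gate had 3.97% of genes called, and the keratinocyte gate 2.46%, of which 0.887% of the genes tested were lower.

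Genes known to respond to handling were followed in lists. Immediate early genes encode transcription factors and feedback regulators that are transcribed within minutes of a stimulus without new protein. Promoters of such genes carry sites of serum response factor (the CArG box) or CREB (the CRE, TGACGTCA), those of inflammatory genes sites of NF-kappaB, and those of chaperone genes the heat shock element, here searched as GAANNTTC. The 250 bases before the start of 4 genes that moved in these data are shown, from RefSeq (GRCm38.p6), 5' to 3' on the strand of the gene, with the motif matches in capitals. *Zfp36* encodes an mRNA decay factor, *Cxcl1* a chemokine that attracts neutrophils, *Nfkbia* the inhibitor of NF-kappaB, and *Hspb1* a small heat shock protein.
Zfp36, chr7:28379229-28379478, minus strand, CArG box: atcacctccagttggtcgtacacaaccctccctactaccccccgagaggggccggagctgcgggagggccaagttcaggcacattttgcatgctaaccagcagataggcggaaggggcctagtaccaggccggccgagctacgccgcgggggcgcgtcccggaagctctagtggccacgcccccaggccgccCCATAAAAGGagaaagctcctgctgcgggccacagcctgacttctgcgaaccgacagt
Cxcl1, chr5:90890995-90891244, plus strand, NF-kappaB site: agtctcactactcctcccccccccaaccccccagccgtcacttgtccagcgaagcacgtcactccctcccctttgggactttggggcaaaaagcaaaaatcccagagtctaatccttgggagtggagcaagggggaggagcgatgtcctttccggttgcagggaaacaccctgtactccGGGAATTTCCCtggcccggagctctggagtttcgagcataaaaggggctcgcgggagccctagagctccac
Nfkbia, chr12:55492648-55492897, minus strand, NF-kappaB site: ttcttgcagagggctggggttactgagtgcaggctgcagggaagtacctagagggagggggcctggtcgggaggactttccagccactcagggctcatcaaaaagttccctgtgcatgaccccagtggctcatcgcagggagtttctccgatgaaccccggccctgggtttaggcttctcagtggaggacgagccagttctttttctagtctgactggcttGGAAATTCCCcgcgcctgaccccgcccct
Hspb1, chr5:135887669-135887918, plus strand, heat shock element in 2 places: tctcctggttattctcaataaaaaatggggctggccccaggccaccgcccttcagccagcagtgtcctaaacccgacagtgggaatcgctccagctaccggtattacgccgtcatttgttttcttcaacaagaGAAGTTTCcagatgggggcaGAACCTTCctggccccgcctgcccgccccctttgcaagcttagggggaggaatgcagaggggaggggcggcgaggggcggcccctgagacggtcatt

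The CArG box of *Zfp36* lay 58 to 49 bases before the start, the overlapping pair of NF-kappaB matches of *Cxcl1* 71 to 61, and that of *Nfkbia* 29 to 20. Both strands were searched in the same 250 bases of 32851 RefSeq promoters. The heat shock element was in 6.69% of them and in 6 of 10 heat shock genes found in the table, the NF-kappaB site in 3.9% and in 5 of 11 inflammatory genes, the CArG box in 1.47% and in 2 of 17 immediate early genes, and the CRE in 1.55% and in 2 of 17. The matches describe these windows only.

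In T and B cells, several genes of the immediate early list were higher in Percoll. In T cells 12 of the 19 genes tested rose and none fell, with a median log2 fold change of 0.54 against -0.01 for all genes, and 2.33% of all genes were called higher. *Zfp36* was at 126, 152, and 219 CPM in whole tumors (lowest, median, and highest of 8) and 313, 377, and 524 in Percoll, with no overlap, a log2 fold change of 1.31 ± 0.05 (SE, adjusted p = 1.1e-10). *Egr1*, which encodes a transcription factor induced by antigen receptor signals, rose from a median of 79.5 to 153 CPM (1.04 ± 0.06, adjusted p = 1.1e-08), and *Fosb* from 41.8 to 103 (0.97 ± 0.20, adjusted p = 0.0024). Without the treatment block 7 of the 19 were called, and between 9 and 13 with 1 treatment left out.

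Other named genes of T cells also rose. *Cd69*, which encodes a surface protein of newly stimulated lymphocytes, was at 79.7, 148, and 224 CPM in whole tumors and 304, 392, and 518 in Percoll, with no overlap (1.42 ± 0.07, adjusted p = 2.9e-09). *Gadd45b*, a stress sensor, rose from a median of 66.9 to 206 CPM (1.51 ± 0.05), and *Tnf* from 20.3 to 61.8 (1.52 ± 0.08). *Ifng*, the cytokine interferon gamma, rose from 120 to 239 CPM (0.90 ± 0.09, adjusted p = 5.1e-06), and *Rgs16*, a regulator of G protein signals, from 202 to 350 (0.83 ± 0.07, adjusted p = 2.6e-07). These 2 genes belong to the lists used here for cytotoxic and exhausted T cells, respectively, and no other gene of either list passed in T cells. *Ccl1* (-1.01), *Clec2d* (-0.82), and the histone gene *Hist1h2ap* (-1.39) fell.

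Cells with the cytotoxic list were 79.4% ± 6.15 of T cells in whole tumors and 83.8% ± 4.43 in Percoll, and cells with the exhausted list 31.6% ± 9.59 and 37.5% ± 9.58, each higher in 8 of 8 pairs after thinning (exact p = 0.0078, adjusted over 12 measures 0.0188). Among B cells, which should lack both lists, the shares were 0.653% and 0.0384%. Without thinning the exhausted list gave 59.7% and 67.9% (exact test, adjusted p = 0.0625). T cells with only CD8 genes were 63.0% ± 3.82 and 63.7% ± 4.29 (exact p = 0.375), and with only *Cd4* 4.15% ± 0.642 and 3.70% ± 0.748 (exact p = 0.0391, adjusted p = 0.0670). With all UMIs the latter were 9.31% and 8.71% (exact test, adjusted p = 0.509).

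In B cells, the antibody-forming lineage, 10 of 19 immediate early genes rose and none fell (median 0.52), against 6.41% of all genes called higher. Without the treatment block 6 of 19 were called, with every cell thinned to 1000 UMIs 7 of 16, and with 1 treatment left out 8 to 10. *Dusp1*, a phosphatase that ends MAP kinase signals, was at 79.5, 148, and 226 CPM in whole tumors and 367, 432, and 607 in Percoll (7 libraries each, 1.57 ± 0.12, adjusted p = 1.9e-07), with no overlap. *Atf3* (1.75), *Klf4* (1.58), and *Junb* (0.98) rose as well, each without overlap. *Gadd45b* was at 13.3, 37.9, and 85.5 CPM and at 259, 392, and 646, the largest rise among the named genes of any lineage (3.22 ± 0.16, adjusted p = 1.2e-09). *Cdkn1a*, which halts the cell cycle (2.63), *Tob1*, an antiproliferative gene (2.38), *Hexim1*, an inhibitor of transcript elongation (2.30), and *Dnajb9*, a chaperone of the endoplasmic reticulum (2.16), were also higher in 7 of 7 pairs. Of all genes 4.98% were called lower, among them the linker histone gene *Hist1h1e* (-1.58) and *Top2a*, a gene of dividing cells (-1.42).

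Of the heat shock list, 7 of 11 B cell genes were called higher and none lower (median 0.62), against 6.41% of all genes. Higher were 3 of 13 in T cells (2.33% of all genes), 3 of 13 in the monocyte or macrophage gate (2.62%), 2 of 11 in neutrophils (6.45%), and 2 of 13 in tumor or stromal cells (3.0%). *Hspa5*, the main chaperone of the endoplasmic reticulum, was at 292, 368, and 478 CPM in B cells of whole tumors and 684, 735, and 929 in Percoll (1.04 ± 0.09). *Hspa1a* (1.25) and *Hspa1b* (1.51) are near-identical copies, so that the split of reads between them is uncertain. *Hspb1* rose in the monocyte or macrophage gate from a median of 2.18 to 6.35 CPM (1.24 ± 0.18, adjusted p = 0.00014), at a low level. *Dnajb1*, a co-chaperone of HSP70, was called higher in all 7 lineages compared, by 0.54 in neutrophils to 1.47 in B cells.

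Across those 7 lineages (T, B, dendritic, and endothelial cells, the monocyte or macrophage gate, neutrophils, and tumor or stromal cells), 2778 genes were tested in each. *Dnajb1*, *Bhlhe40*, a transcription factor of stress and activation, and *Ccnl1*, a regulator of splicing, were the 3 called higher in each of the 7, and *mt-Nd3*, a mitochondrial subunit of complex I, the 1 called lower in each. *Gadd45g*, *Chka*, *Gna13*, *Rgs1*, and *Siah2* were among those higher in 6 lineages, *Rgs1* in all 6 where it was tested. *Bhlhe40* and *Ccnl1* and these 5 were singled out after their values were seen. *Gadd45b* by contrast had log2 fold changes of 3.22 in B cells, 1.84 in endothelial cells, 1.51 in T cells, 1.13 in the monocyte or macrophage gate, 1.09 in tumor or stromal cells, -0.17 in dendritic cells, and -0.22 in neutrophils.

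In neutrophils, more genes of the immediate early list fell than rose. Of 20 genes 8 fell and 3 rose, with a median of -0.33 against -0.02 for all genes, of which 4.77% were called lower and 6.45% higher. *Fos* was at 1444, 1660, and 1882 CPM in whole tumors and 471, 542, and 594 in Percoll, with no overlap, a fall by 1.62 on the log2 scale (SE 0.07, adjusted p = 5.2e-11). *Btg2*, an antiproliferative gene, fell from a median of 3270 to 1332 CPM (-1.23 ± 0.07), *Zfp36* from 3034 to 1400 (-1.09 ± 0.07), and *Junb* from 5408 to 3161 (-0.75 ± 0.07), each in 8 of 8 pairs and without overlap. *Nr4a1* (-0.72), *Dusp1* (-0.62), *Egr1* (-0.56), and *Ier2* fell too, whereas *Klf6* (0.74), *Jun* (0.64), and *Atf3* (0.54) rose. The summed level of the list was 22343 to 24666 CPM in whole tumors and 13086 to 17983 in Percoll. In every setting tried 6 to 8 of the genes fell and 2 to 4 rose.

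**Figure D3:**
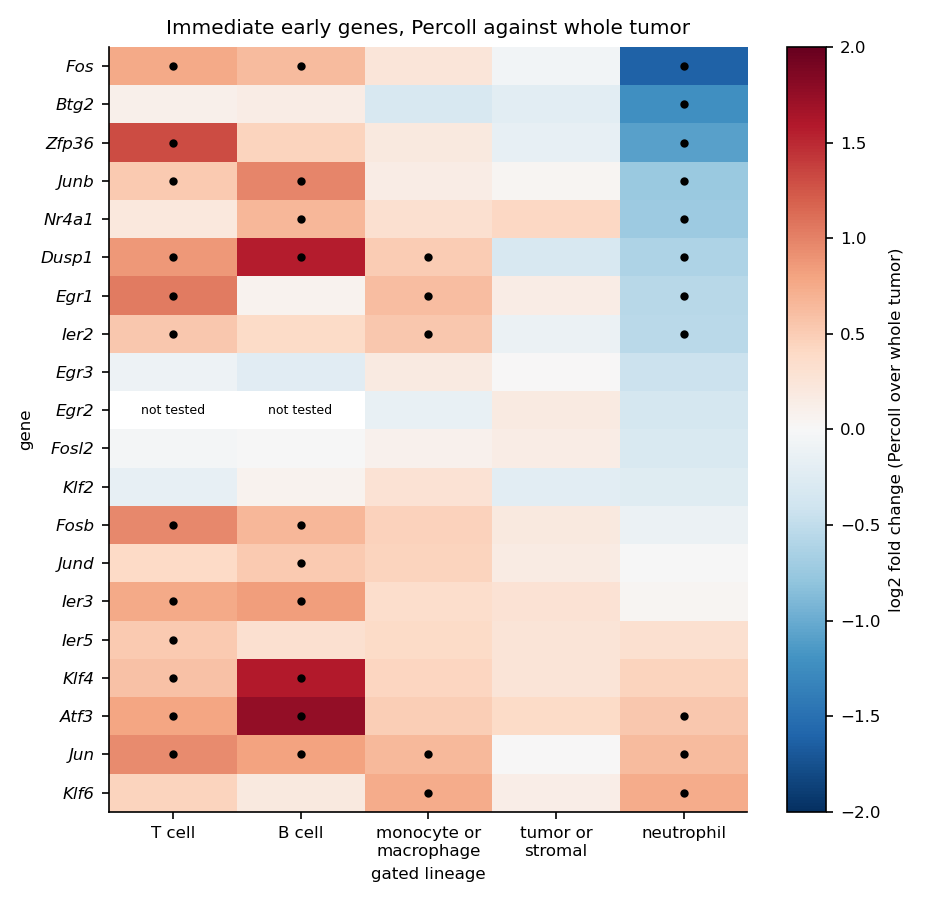
Log2 fold change (Percoll over whole tumor, color) of 20 immediate early genes in 5 gated lineages, ordered by the change in neutrophils. A dot marks a gene called by edgeR (adjusted p under 0.05 and absolute log2 fold change over 0.5). In T and B cells no gene is called lower, and in neutrophils 8 genes from *Fos* to *Ier2* are.

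The difference between lineages was tested itself, by limma on the log2 ratios within each treatment, a test added after the data had been seen. T cells minus neutrophils differed in 10 of 19 immediate early genes, all higher in T cells, against 3.29% of all genes called in either direction and 1.45% above neutrophils. *Fos* differed by 2.41 ± 0.21 (adjusted p = 0.00020) and *Zfp36* by 2.40 ± 0.08 (adjusted p = 2.3e-07), in 8 of 8 treatments. For B cells 7 of 18 genes were called above neutrophils and none below (2.31% of all genes in either direction, 1.61% above), and for the monocyte or macrophage gate 9 of 20 and none (3.32% and 1.63%). For tumor or stromal cells 7 of 20 were above and 2 below (4.96% in either direction, 2.03% above, 2.93% below), and *Fos* differed by 1.56 ± 0.10 (adjusted p = 0.00011). In tumor or stromal cells none of the 20 genes was called between preparations by edgeR, against 3.0% of all genes called higher and 2.43% lower, with a median of 0.14.

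Mitochondrially encoded mRNAs of neutrophils were lower in Percoll. All 13 fell, with a median log2 fold change of -1.69 (-1.84 to -1.22), where 4.77% of all genes were called lower. *mt-Cytb*, a subunit of complex III, was at 2724, 5166, and 10200 CPM in whole tumors and 1275, 1484, and 1799 in Percoll (-1.84 ± 0.18, adjusted p = 9.9e-07), with no overlap. The summed level of the 13 was 18382, 34573, and 62515 CPM in whole tumors and 9058, 10762, and 13378 in Percoll. The spread lay mainly among the whole-tumor libraries, with Anti-PD-1 highest. The mitochondrial share was also used to choose the cells, which limits it to under 10% in each cell. With a limit of 5% all 13 were called lower with a median of -1.41, and with Anti-PD-1 left out in both preparations with a median of -1.52.

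**Figure D4:**
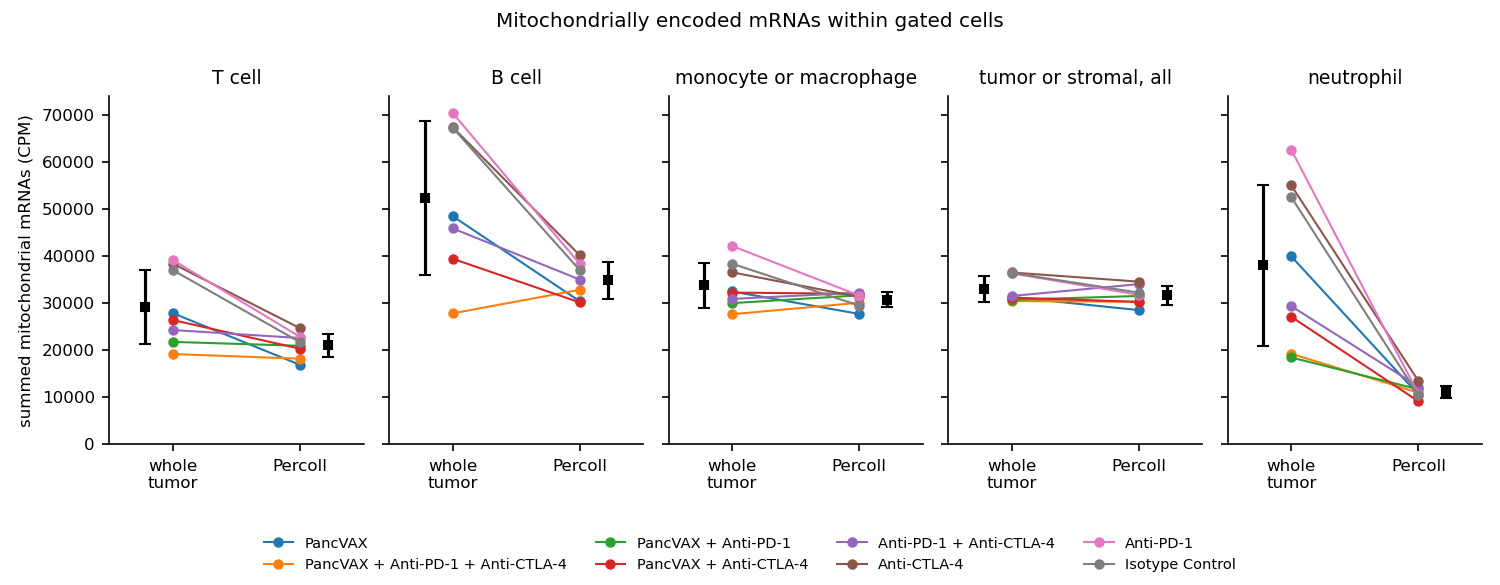
Summed level of 13 mitochondrially encoded mRNAs (CPM) in 5 gated lineages of whole-tumor and Percoll libraries. Lines join the 2 libraries of a treatment and squares with bars are mean ± SD over 8 libraries (7 for B cells). In neutrophils all Percoll libraries lie under all whole-tumor libraries.

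The other lineages had smaller changes of these mRNAs. In B cells 8 of 13 were called lower (median -0.54), in T cells 5 (-0.45), in dendritic cells 3 (-0.35, with 0.756% of all genes called lower), and in the monocyte or macrophage gate and in tumor or stromal cells *mt-Nd3* alone, with medians of -0.12 and 0.01. The lower shares of all genes were 4.98% in B cells and 2.41% in T cells. Under a limit of 5% mitochondrial UMIs 1 of 13 was called in B cells (median -0.13) and 3 in T cells (-0.33), so that most of the B cell calls were lost. With 1 treatment left out 5 to 9 were called in B cells, the fewest without Anti-PD-1, and 4 to 7 in T cells. With every cell thinned to 1000 UMIs 9 were called in T cells and 4 in the monocyte or macrophage gate (median -0.36). The effect in neutrophils was below that in T cells, in the monocyte or macrophage gate, and in tumor or stromal cells for 13 of 13 genes, and below that in B cells for 12 of 13 (limma test of the difference). Of all genes, 1.45%, 1.63%, 2.03%, and 1.61% were called in that direction in these 4 tests.

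Other neutrophil genes changed as well. *Il1b*, the cytokine interleukin 1 beta, fell from 11390, 13890, and 14720 CPM in whole tumors to 5370, 6708, and 9149 in Percoll (-0.96 ± 0.08, adjusted p = 2.0e-07), and *Ptgs2*, the inducible enzyme of prostaglandin synthesis, from a median of 1119 to 622 (-0.91 ± 0.09), both without overlap. *Ccl3*, a chemokine for monocytes and T cells, rose from 1835 to 3978 CPM in the median (1.07 ± 0.10), and *Cd83* from 54.9 to 136 (1.27 ± 0.16). *Gadd45a* rose from 48.2, 69.5, and 98.3 CPM to 169, 235, and 280 (1.71 ± 0.08, adjusted p = 5.2e-11), *Gadd45g* by 1.97, and *Chka*, a kinase of choline, by 1.63. *Mmp12*, a macrophage elastase, rose by 1.81, from a median of 18.3 to 74.8 CPM, while in the monocyte or macrophage gate it was at 63.7 and 117 (0.89). The summed macrophage markers in neutrophils were at 1610 and 1700 CPM in the median, lower in Percoll in 5 of 8 pairs, and their part in this rise was not tested. *Hist1h4d*, 1 of several near-identical histone genes, fell by 1.85 on the log2 scale. *Acta1*, the actin of skeletal muscle, fell by 2.30, but its whole-tumor levels ran from 8.77 to 355 CPM. This gene led the cells of no gate by fold and was also called lower in T cells, the monocyte or macrophage gate (-1.58), and tumor or stromal cells (-1.68), and the part of muscle RNA from other cells was not tested.

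Some of the genes that define neutrophils moved in opposite directions, and since these markers took part in the gate their values are a description. *G0s2*, an inhibitor of lipolysis, was at 8836, 10140, and 13540 CPM in whole tumors and 1993, 3550, and 4368 in Percoll. *Il1r2*, the decoy receptor for interleukin 1, was at 2495, 3710, and 4173 CPM and at 6269, 7087, and 8110. *Cxcr2*, the receptor that brings neutrophils into tissue, had medians of 253 and 175 CPM. The preparations did not overlap for *G0s2*, lower in Percoll, nor for *Il1r2*, higher in Percoll.

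Fewer neutrophils of the Percoll libraries carried more UMIs of a list of recently arrived cells (*Retnlg*, *Mmp8*, *Ly6g*, and others) than of a list of tumor neutrophils (*Siglecf*, *Ccl3*, *Cd274*, and others). *Retnlg*, *Mmp9*, *Ly6g*, and *Stfa2l1* of the recent list are also gate markers. The share of such cells was 27.0% to 32.3% in whole tumors and 14.1% to 27.3% in Percoll, with means of 28.9% ± 1.95 and 19.1% ± 3.94 (n = 8, lower in 8 of 8 pairs, exact p = 0.0078, adjusted p = 0.0188). With cells of at least 2000 UMIs the difference was -5.19 points, against -9.79 as reported. With all UMIs the shares were 30.7% and 19.4% (exact test, adjusted p = 0.0469), and in T cells, which should lack both lists, 2.49% passed as recent. The 2 groups overlapped only through the Percoll library of Anti-PD-1, at 27.3%. Of single genes, *Ccl3* and *Tnfrsf23* (0.67 ± 0.13), of the tumor list, rose, and no gene of the recent list passed the test in neutrophils. Per 1000 UMIs, *Retnlg* was at 0.695 in whole tumors and 0.788 in Percoll, *Mmp9* at 0.920 and 0.932, and *Stfa2l1* at 0.1645 and 0.1757. *Ly6g* was at 0.00533 and 0.0032. The share compares 2 lists, and the part of each list in its fall was not tested. *Ccl3* is also in the inflammatory list.

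In the monocyte or macrophage gate inflammatory genes were higher in Percoll. Of 14 genes of that list 9 rose and none fell, with a median of 0.68, against 2.62% of all genes called higher, and 7 to 9 rose in the other settings. *Cxcl2*, like *Cxcl1* a chemokine for neutrophils, was at 334, 443, and 984 CPM in whole tumors and 893, 1256, and 2390 in Percoll (1.45 ± 0.05, adjusted p = 8.8e-11). *Cxcl1* was at 13.1, 24.0, and 56.6 CPM and at 41.3, 67.9, and 203 (1.60 ± 0.08). Each rose in 8 of 8 pairs, and the groups overlapped between treatments. *Tnf* (48.3, 55.0, and 97.2 CPM to 103, 130, and 192, 1.19 ± 0.06) and *Nfkbia* (318, 381, and 606 to 658, 784, and 1114, 0.98 ± 0.05) did not overlap.

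Immediate early genes of that gate rose in 5 of 20 cases (median 0.36, 3 to 8 genes in the other settings), against 2.62% of all genes, *Klf6* (0.75), *Jun* (0.64), *Egr1* (0.62), *Ier2* (0.53), and *Dusp1*. *Id2*, an inhibitor of helix-loop-helix factors, was at 220, 283, and 356 CPM in whole tumors and 507, 643, and 945 in Percoll (1.20 ± 0.05, adjusted p = 5.4e-10). *Gadd45g* rose from a median of 41.9 to 113 CPM (1.42 ± 0.05), and *Il1r2*, a marker of the neutrophil gate, from 49.8 to 115 (1.21 ± 0.05). In neutrophils *Il1r2* was far higher. It was also called higher in the epithelial or tumor gate (1.27), the keratinocyte gate (1.38), and tumor or stromal cells (1.19). *G0s2*, another neutrophil marker, was lower in neutrophils, in this gate (-0.83), in T cells (-1.36), and in tumor or stromal cells (-1.05). The part of neutrophil RNA in these changes of *Il1r2* and *G0s2* was not tested. *Vegfa*, which drives the growth of vessels, rose by 0.64 ± 0.06, and *Spp1*, the matrix protein osteopontin, by 0.52 ± 0.16.

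Of all genes in the gate 1.57% were called lower. *Folr2*, a folate receptor of tissue macrophages, was at 19.7, 32.6, and 59.8 CPM in whole tumors and 10.5, 15.9, and 32.4 in Percoll (-1.12 ± 0.09, adjusted p = 3.2e-07), lower in 8 of 8 pairs. *Maf*, a transcription factor of such cells, fell from a median of 206 to 145 CPM (-0.57 ± 0.05), *Clec2d* from 80.5 to 45.5 (-0.78 ± 0.06), and *Wwp1* from 73.8 to 47.3 (-0.62 ± 0.05). *F13a1*, a gate marker, was at 29.2, 43.5, and 73.9 CPM and at 13.3, 21.6, and 51.3. In the sums over all cells *Folr2* (-1.54), *Mrc1*, the mannose receptor (-0.68), and *Ccl8* (-0.62) were lower in 8 of 8 pairs. Cells with more UMIs of a monocyte list than of a C1q list were 1.91% ± 0.414 of the gate in whole tumors and 2.59% ± 0.854 in Percoll (higher in 8 of 8 pairs, exact test, adjusted p = 0.0188). In T cells, which should lack both lists, this measure was 50.9%, above the gate itself, so that it is read as background. Of the 8 C1q genes *Folr2* alone passed, and of the 6 monocyte genes none by edgeR. *C1qa*, *C1qb*, *C1qc*, *Ms4a7*, and *Mrc1* of the C1q list are also markers of the gate, so the count for that list is a description.

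**Figure D5:**
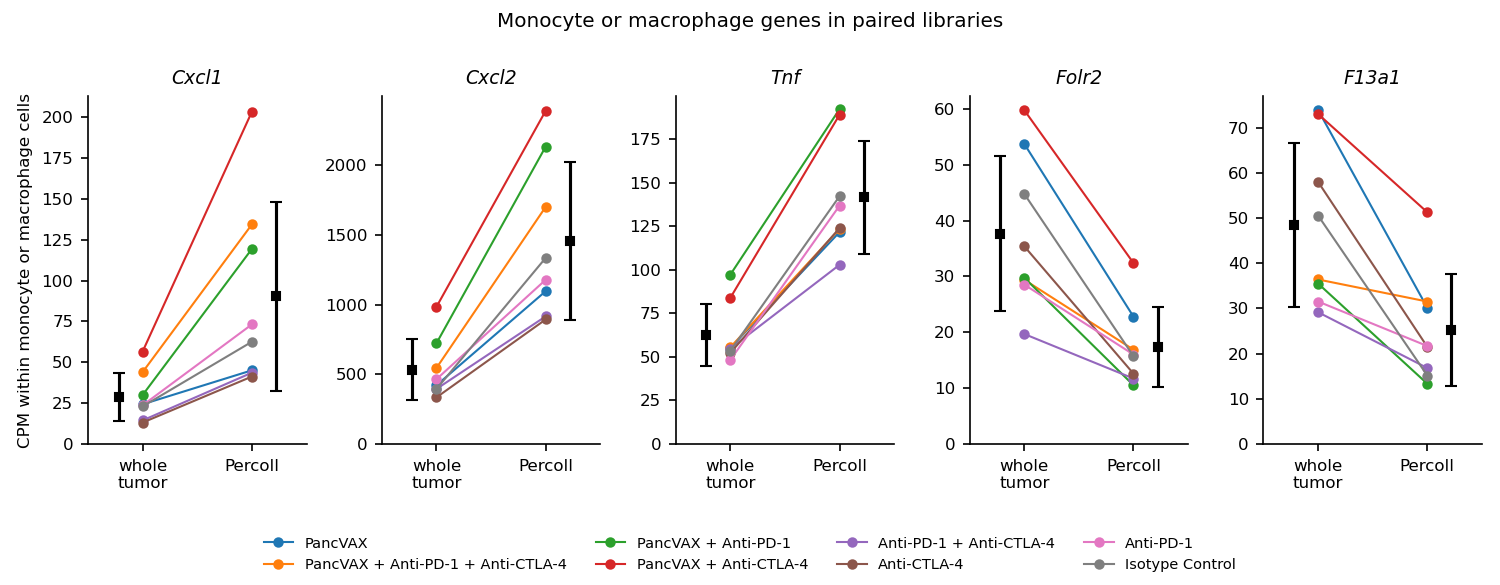
CPM of 5 genes in the monocyte or macrophage gate of whole-tumor and Percoll libraries, each panel with its own axis from 0. Lines join the 2 libraries of a treatment and squares with bars are mean ± SD of 8 libraries. The 3 inflammatory genes rose along all 8 lines, and *Folr2* and *F13a1* fell along all 8.

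Inflammatory genes of the other lineages gave 3 higher and 1 lower of 11 in T cells (*Tnf*, *Nfkbia*, and *Icam1* higher, *Il1b* lower), against 2.33% and 2.41% of all genes, and 3 higher and none lower of 8 in B cells, against 6.41% and 4.98%. *Il1b* in T cells had medians of 38.3 and 20.4 CPM (-0.73), where neutrophils had 13890 and 6708, and the part of neutrophil RNA in its fall was not tested. In B cells *Nfkbia* was at 178, 295, and 342 CPM in whole tumors and 591, 883, and 1170 in Percoll (1.68 ± 0.12), with no overlap. Neutrophils had 3 higher and 2 lower of 13, against 6.45% and 4.77%. Tumor or stromal cells had 4 higher of 14, against 3.0%: *Il6* (0.70), *Cxcl1* (0.59), *Ptgs2* (0.51), and *Tnf* (1.12), the last at a low level, with medians of 0.486 and 1.07 CPM. In the limma test of the difference from neutrophils, 5 of 13 inflammatory genes were called above in the monocyte or macrophage gate (1.63% of all genes), 1 of 13 in tumor or stromal cells (2.03%), and 2 of 7 in B cells (1.61%), where 1 was below (0.699%). In T cells none of 11 was above and 2 were below (1.45% and 1.85%).

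Tumor or stromal cells had rises of *Gadd45g* (from 50.8, 55.9, and 69.4 CPM to 116, 145, and 183, 1.30 ± 0.06), *Gadd45b* (1.09), *Nptn*, a cell adhesion gene (0.82), *Sgk1*, a stress-induced kinase (0.79), and *Myc* (from a median of 92.2 to 158 CPM, 0.79 ± 0.04). *Eno1*, an enzyme of glycolysis, fell from 502, 588, and 676 CPM to 222, 353, and 616 (-0.64 ± 0.11, adjusted p = 0.00078), and 1 of 18 genes of hypoxia and glycolysis was called there, a share close to the 5.42% of all genes called. In the stromal gate 139 genes were higher and 295 lower (3.68% of 11800 called, 1.18% higher and 2.5% lower). Among those that fell were *Eln*, which encodes elastin (35.1, 71.5, and 118 CPM to 14.1, 28.4, and 53.1, -1.12 ± 0.15), *Fbn1*, which encodes fibrillin (median 192 to 73.2 CPM), *Cilp* (-1.03), and *Igfbp6* (-0.98). *Col1a1*, a gate marker, had medians of 1671 and 917 CPM, and *Col1a2* of 1282 and 652. Of the other gate markers, *Lum* (0.336 and 0.360 per 1000 UMIs), *Ogn* (0.649 and 0.655), and *Prelp* (0.862 and 0.936) were not lower in Percoll. *Dcn* (2.23 and 2.15) and the rest were lower. Cells with the list of cycling genes were 27.9% ± 2.72 of tumor or stromal cells in whole tumors and 22.6% ± 1.85 in Percoll after thinning (n = 8, lower in 7 of 8 pairs, exact p = 0.0156, adjusted p = 0.0313). Without thinning they were 90.6% and 89.7% (exact test, adjusted p = 0.938), and of the 13 genes of the list 1 was called, lower, where 2.43% of all genes were. The cycling share passed in 8 of 18 alternative settings, with differences of -8.16 to -0.472 points. After thinning, 10.9% of B cells passed the same list.

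Endothelial cells had 30 genes higher and 6 lower. *Gadd45b* rose from a median of 15.5 to 67.1 CPM (1.84 ± 0.24, adjusted p = 0.0022), *Snai1*, a transcription factor, from 42.7 to 125 (1.39 ± 0.17), and *Hbegf*, a growth factor, from 152 to 301 (1.15 ± 0.14). *Cxcl12*, a chemokine that retains leukocytes, fell from 322 to 63.4 CPM (-1.70 ± 0.33, adjusted p = 0.0262). In dendritic cells, which prime T cells, *Rgs2* rose from 63.4, 121, and 149 CPM to 211, 279, and 363 (1.29 ± 0.13, adjusted p = 2.8e-05) and *Atf3* from a median of 201 to 386 (1.08 ± 0.18). These 2 lineages had as few as 21 and 27 cells in a library.

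Macrophage transcripts were also followed in the gates of other cells, where free RNA in the suspension or doublets can place them. In T cells 4 of the 5 genes of a macrophage list fell (median -0.86), against 2.41% of all genes called lower. *C1qa*, a subunit of complement C1q, was at 20.8, 39.2, and 47.5 CPM in T cells of whole tumors and 11.1, 18.3, and 38.3 in Percoll (-0.86 ± 0.20), lower in 7 of 8 pairs. In stromal cells 4 of 5 fell (2.5% of all genes), in B cells 2 of 5 (4.98%), in tumor or stromal cells 2 of 5 (2.43%), and in neutrophils 2 of 5 (4.77%), where *Spp1* rose (0.63 ± 0.15). *C1qb* in neutrophils was at 100 to 155 CPM in whole tumors and 32.9 to 99.8 in Percoll. The summed level of the 5 genes, *Spp1* included, did not follow these genes in each lineage. Its lowest, median, and highest values were 213, 300, and 405 CPM in T cells of whole tumors and 134, 179, and 347 in Percoll. In neutrophils they were 1487, 1733, and 1951 CPM and 1214, 1853, and 2159, and in stromal cells 1343, 1486, and 1698 and 1106, 1570, and 1826. The macrophage share of all cells was also lower in Percoll, and the part of either in the other was not tested. The gates themselves limit how many of these UMIs a cell can hold. *C1qa* and *C1qb* are markers of the monocyte or macrophage gate, so their values, and the counts that include them, are a description.

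The effect of Percoll on genes was also compared between pools with PancVAX and without it. The interaction was called by edgeR for no gene in the sums over all cells, in T cells, in B cells, and in neutrophils. At an unadjusted p under 0.05 there were 751, 553, 267, and 278 genes, and DESeq2 called 25, 1, 0, and 0. In the monocyte or macrophage gate 1 gene of 11919 was called (0.00839%), *Egr1* (-0.68 ± 0.09, adjusted p = 0.024). Its whole-tumor levels were 141 to 211 CPM with PancVAX and 95.8 to 141 without, and its Percoll levels 188 to 227 and 195 to 254. *Cstdc5*, a cystatin gene, was the 1 gene called in the keratinocyte gate (0.00853%) and, with *Cd248*, 1 of 2 in tumor or stromal cells (0.013%). *Cstdc5* passed the count filter of the interaction fit, which groups libraries by preparation and PancVAX, but not that of the main fit, by preparation alone. Its mean levels in whole tumors and Percoll were 28.1 and 40.4 CPM in the keratinocyte gate and 3.84 and 5.12 in tumor or stromal cells. Its values are a description. In the stromal gate 22 of 12296 genes were called (0.179%). *Cd248*, a surface protein of pericytes and fibroblasts, went from 30.1 to 140 CPM in whole tumors without PancVAX to 12.0 to 71.4 in Percoll, and from 29.9 to 108 to 25.8 to 94.7 with it (0.96 ± 0.12, adjusted p = 0.0127). *Postn*, the matrix protein periostin, had an interaction of 0.97 ± 0.17 (edgeR adjusted p = 0.0465). It is a marker of the stromal gate, so its value is a description.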

How the data were processed

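Per the file headers and the study's methods, the authors made UMI counts per gene and barcode with Cell Ranger 4.0.0 on mm10 (Seurat is also named in the submitters' processing notes), and deposited them aggregated over 16 libraries before filtering cells. The T cell receptor contigs were used only as a check of the T cell gate. Sums per library and lineage were tested with edgeR 4.0.16 (TMM, filterByExpr, treatment block) in R 4.3.3, differences between lineages with limma 3.58.1, and shares by exact paired sign-flip permutation (256 flips, two-sided, Benjamini-Hochberg within each family of measures) in Python 3.11.15. Lineages needed 20 cells in a library and 4 pairs. DESeq2 1.42.0, other limits, gates, filters and scalings, a fit without the block, and leaving out each treatment were alternatives. Members and lists were chosen with earlier results of these data known. Genes named were list members that were called (up to 4 per list by size) and the 5 largest rises and falls at 50 CPM or more, antigen receptor segments left out, and gate markers. Genes chosen outside this rule are named where given.

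The treatment pairs the libraries by their labels. Deviations of the 2 libraries of a treatment from their preparation's means correlated at 0.434 to 0.733 in sums over all cells and 0.197 to 0.547 in T cells. They did so at 0.123 to 0.407 in the monocyte or macrophage gate and -0.030 to 0.272 in neutrophils. Between different treatments the medians of these 4 were -0.062, -0.191, -0.040, and -0.034. A library's best match was its own treatment in 8, 7, 7, and 5 of 8 pairs. Correlations within a treatment were -0.38 to -0.22 in NK cells, -0.015 to 0.148 in dendritic cells, and -0.069 to 0.307 in endothelial cells. In these 3 the best match was the own treatment in 0 of 4, 2 of 8, and 2 of 7 pairs. On simulated data with 100 genes changed 2-fold, the fit recovered 93% in all cells, 93% in T cells, 97% in neutrophils, and 89% in B cells, and 71%, 73%, 60%, and 46% of 100 changed 1.5-fold, with 2, 3, 10, and 7 false calls. Depth and precision are limited by the cells per library, and the interval of a share covers counting error only.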

Additional observations from a re-analysis of the deposited data

Results flagged for a closer look

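Single libraries stood apart from the other 7 of their preparation in several measures. Of 108 sets of library measures tested, 13 held such a library, as did 3 of 70 sets for the genes given in full and 74 of 638 for all named genes, where chance gives about 1 in 20. Among Percoll libraries, PancVAX had 22.6 hemoglobin CPM over all barcodes (others 0.00762 to 4.21). PancVAX + Anti-PD-1 had a median of 3925.5 UMIs per cell in the monocyte or macrophage gate (others 6404 to 7579.5) and 7523.5 in tumor or stromal cells (others 18884 to 21581), and 29.3% of its cells had over 10000 UMIs (others 48.9% to 62.7%). PancVAX + Anti-CTLA-4 had 0.768% dendritic cells (others 0.451% to 0.574%). Among whole-tumor libraries, Anti-PD-1 had 66.5% of barcodes passing the rule (others 75.1% to 82.2%) and 22.8% under 1000 UMIs (others 12.7% to 16.9%).

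Some cells were frequent in both libraries of 1 treatment. B cells were 7.67% of cells in Percoll with Anti-PD-1 (others 0.188% to 3.38%) and 6.15% in whole tumors (others 0.247% to 2.78%). Mast cells or basophils were 0.329% of cells in Percoll with PancVAX + Anti-PD-1 (others 0 to 0.0461%) and 0.0873% in whole tumors (others 0 to 0.0206%), which is 1.06% and 0.190% of gated leukocytes. *Cma1*, a mast cell chymase, was there at 14.4 CPM over all cells in Percoll (others 0.139 to 5.56) and 2.94 in whole tumors (others 0.146 to 0.703). *C1qa* in T cells was at 38.3 CPM in the Percoll library of Anti-PD-1 + Anti-CTLA-4 (others 11.1 to 21.0).

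The effect of Percoll differed between pools with and without PancVAX for some genes (interaction test of edgeR, log2 scale, with minus without). Among them were *Egr1* in the monocyte or macrophage gate (-0.68) and *Cd248* in tumor or stromal cells (0.96). In stromal cells they were *Apod* (1.71), *Cnn3* (0.99), *Postn* (0.97), *Cd248* (0.96), *Rcn3* (0.88), and *Gm26917* (-0.76). *Postn* is a marker of the stromal gate, so its value is a description. *Cstdc5* had values of 9.48 in the keratinocyte gate and 8.89 in tumor or stromal cells. It entered through the count filter of the interaction fit alone, and its values are a description. Effects also differed between lineages in the limma test. Against neutrophils, *Fos* differed by 2.28 in B cells, 2.41 in T cells, 1.85 in the monocyte or macrophage gate, and 1.56 in tumor or stromal cells. *Dusp1* differed by 2.24 in B cells, *Zfp36* by 2.40 in T cells and 1.28 in the monocyte or macrophage gate, and *Nr4a1* by 1.14 in tumor or stromal cells.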

How the results depend on the processing

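With 1 library per treatment and preparation, depth and the number of pairs limit what can be called: a test of 8 pairs cannot go below 0.0078, and dendritic, NK, and endothelial gates rest on few cells. Of the named genes' alternatives, 4240 of 4755 kept their direction and call, 511 lost the call, and 4 reversed: *Ms4a6c* in neutrophils, -0.20 with the study's limits and -0.050 with every cell thinned to 1000 UMIs, *Pfkp* in dendritic cells (-0.11) and *Lyz2* in stromal cells (0.26) with the study's limits. The cycling share of the monocyte or macrophage gate, -2.37 points (exact test, adjusted p = 0.0188), was 2.39 with all UMIs and 4.35 from 500 UMIs. It passed in 17 of 18 alternatives, the 4.35 of opposite sign included, and not with all UMIs (exact test, adjusted p = 0.3125). The cause of these reversals was not tested.

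The shares of gated leukocytes, just outside the threshold, passed it in some settings. The difference of the monocyte or macrophage gate and of neutrophils was -10.1 and 5.46 points with all UMIs, -11.8 and 6.85 with the study's limits, -8.58 and 2.32 from 2000 UMIs, -12.2 and 7.99 under 5% mitochondrial UMIs, -12.1 and 6.17 with a leading list of 0.9 of marker UMIs, -9.99 and 5.69 without the leukocyte-list condition, -9.93 and 5.72 without barcodes shared within a preparation, and -13.6 and 7.97 from 500 UMIs. For T cells it was 3.57 with the study's limits, 4.72 from 2000 UMIs, 4.36 with 0.9, 3.27 without the leukocyte-list condition, and 4.28 from 500 UMIs, but 0.798 under 5% mitochondrial UMIs (exact test, adjusted p = 0.529), against 3.20 as reported. The B cell share differed by 3.62 under 5%, against 1.25, and passed (exact test, adjusted p = 0.0273). With 1 treatment left out the ranges were 2.71 to 4.04 for T cells, -11.4 to -9.07 for the monocyte or macrophage gate, and 5.18 to 6.15 for neutrophils, and the share of barcodes passing the rule differed by 8.05 to 10.1 points and that with a hemoglobin UMI by -0.825 to -0.659. With 7 pairs the exact test reaches less far. With the study's limits, which also drop barcodes of over 10000 UMIs, the passing share differed by 2.41 points and its call was lost (exact test, adjusted p = 0.266).

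Without the replicate block (treatments unpaired), the monocyte or macrophage share of all cells differed by -4.37 points and passed (exact test, adjusted p = 0.0497), the leukocyte share did not, and 824 genes were called in all cells, 324 in T cells, 385 in B cells, 401 in the monocyte or macrophage gate, 703 in neutrophils, and 547 in tumor or stromal cells. Thinning every cell to 1000 UMIs gave 243 genes in B cells, 294 in the monocyte or macrophage gate, and 316 in tumor or stromal cells, where the study's limits gave 288. DESeq2 gave 493 in neutrophils. The PancVAX interaction moved with the filter and the tool: without the filter 80 genes were called in T cells, 31 in neutrophils, and 254 in stromal cells, and by DESeq2 1 in T cells and 37 in stromal cells. The count over all cells held within 1.5 times in 14 of 14 settings.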

Other observations

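Of the 8 marker genes of mast cells and basophils, granulated cells of allergic responses, 7 were tested in sums over all cells and 5 were called higher in Percoll by edgeR, with a median log2 fold change of 1.23 against -0.01 for all genes (4.08% called higher). Without PancVAX + Anti-PD-1 2 of 6 were called, by DESeq2 3 of 7, and without the replicate block none of 7. That treatment's Percoll library held 35 such cells, where the other 7 held 0 to 3 each. The share of mast cells or basophils did not pass (0.0182% ± 0.0290 and 0.0610% ± 0.110 of cells, n = 8, exact p = 0.0625, adjusted p = 0.111).

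Gamma-delta T cells, lymphocytes with the other kind of T cell receptor, were 8.69% ± 4.80 of T cells in whole tumors and 8.05% ± 4.49 in Percoll (n = 8, exact p = 0.281) with cells thinned to 1000 UMIs, and 26.3% and 26.2% with all UMIs. *Foxp3*-positive cells, regulatory T cells by that marker, were 2.03% ± 0.596 and 1.95% ± 0.908 (exact p = 0.813) after thinning, and 4.25% and 4.43% with all UMIs. NK cells were 0.296% ± 0.0885 and 0.280% ± 0.102 of all cells (exact p = 0.641), and dendritic cells 0.662% ± 0.204 and 0.540% ± 0.103 (exact p = 0.117). None of the 4 was called.

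The B cell share of all cells in a treatment's whole-tumor library and in its Percoll library had Pearson's r of 0.992 (exact permutation p = 0.000248, 0.00124 adjusted over 5 lineage shares) and Spearman's rho of 0.976 (p = 0.000397, adjusted 0.00198) over 8 treatments. Without the 2 treatments farthest from the median r was 0.949. For the T cell share r was 0.693 (exact permutation p = 0.0627, adjusted 0.121) and rho 0.857 (p = 0.0107, adjusted 0.0268), and r was 0.903 without the 2 farthest treatments. The monocyte or macrophage share had r of 0.621 and rho of 0.643, and the neutrophil share 0.660 and 0.476, with adjusted exact p of 0.121 to 0.304, and without the 2 farthest treatments r was 0.774 and 0.848. For the leukocyte share r was 0.390 (p = 0.328) and rho 0.238 (p = 0.582), and r was 0.756 without the 2 farthest.

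Libraries shared cell barcodes in all combinations, 50 to 284 within a preparation, 67 to 145 within a treatment, and 60 to 201 between libraries with neither in common. As a rate per pair of barcodes, which takes out library size, a same-preparation pair had a median like that of libraries with neither in common. Standing above all pairs of the latter kind were PancVAX and Anti-CTLA-4 in Percoll, with 168 shared barcodes, and PancVAX + Anti-CTLA-4 and Isotype Control in whole tumors, with 284. Shares of gated leukocytes without the barcodes shared within a preparation are given above.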
